A study of Mus musculus with 6 samples.

Results

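The 10 genes of the retinal vasculature followed here were chosen by symbol: the endothelial genes Pecam1, Cdh5, Cldn5 and Vwf, the growth factor Vegfa with its receptors Kdr and Flt1, the angiopoietin receptor Tek, and the pericyte genes Pdgfrb and Rgs5. Of these 10 members, 9 had a value in all 6 libraries, out of 25935 genes measured in every library. The libraries came from retinas of wild type C57BL/6 mice (C57BL/6J in the methods), 3 in each of 2 groups. The labels describe retinas that were removed and frozen, whereas the methods describe total retinal cells put into the RNA reagent, so how far vessel cells were recovered is not known from the sources used here. Both groups received NMDA, a glutamate receptor agonist that kills inner retinal neurons, as 2 μl of a 100 mM solution in the vitreous, and 2 days later a further injection of either the PBS vehicle (the NMDA group) or 2 μl of recombinant stem cell factor at 50 ng/μl (the SCF group). SCF, stem cell factor, is the ligand of the receptor tyrosine kinase c-kit. Retinas were taken 1 week after that injection. The methods put the mice at 4 weeks of age at the start, the sample labels give postnatal week 5, and the number of mice behind a library is not given, so that p-values measure the spread between these libraries only. There was no group without NMDA, and the comparison addresses what SCF added to the damaged retina.

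The inner retina is fed by capillaries whose endothelial cells are sealed to each other by tight junctions and wrapped by pericytes, and together they form the inner blood-retina barrier. Neurons and Müller glia release VEGF-A, which acts on endothelial cells through the receptor VEGFR2 (Kdr), while VEGFR1 (Flt1) binds the same ligand tightly and also exists as a secreted form that traps it. Endothelial cells recruit pericytes by releasing PDGF-B, the ligand of PDGFRβ, and angiopoietins act on the vessel through the receptor TIE2 (Tek).

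The transcript behind a gene's value differed from member to member, and 3 of them need their sequences shown. GENCODE M21 holds 52 transcripts of the 10 genes, 31 of them coding, and 21 were listed for every library, 10 coding and 11 not. Flt1 was measured on both of its coding transcripts. Flt1-202 is the full-length receptor, whose exon 13 is spliced to exon 14, and Flt1-203 reads on from exon 13 into the intron for 4066 bases, of which 92 are coding, as in the soluble form. The last 30 bases of exon 13 at chr5:147639225-147639254 (GRCm38, minus strand) are in lower case, and the capitals mark the 30 bases that follow, at chr5:147634494-147634523 in Flt1-202 and at chr5:147639195-147639224 in Flt1-203.
Flt1-202: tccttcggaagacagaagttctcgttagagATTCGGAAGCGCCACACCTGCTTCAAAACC
Flt1-203: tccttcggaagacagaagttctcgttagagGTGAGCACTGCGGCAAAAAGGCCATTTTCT

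Kdr was measured on 2 non-coding transcripts only, Kdr-202 and Kdr-203. Kdr-203 also reads from exon 13 into the intron, for 1752 bases, where the full-length Kdr-201 (not used here) goes on to exon 14. The shared 30 bases lie at chr5:75959117-75959146 (minus strand), and the capitals again mark what follows, at chr5:75957081-75957110 in Kdr-201 and at chr5:75959087-75959116 in Kdr-203.
Kdr-201: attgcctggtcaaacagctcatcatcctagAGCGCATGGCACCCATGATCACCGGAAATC
Kdr-203: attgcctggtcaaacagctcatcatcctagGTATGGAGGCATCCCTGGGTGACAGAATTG

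Vegfa was measured on 1 transcript, Vegfa-208, which is 550 bases long and annotated as a retained intron. It holds 250 bases of intron followed by 300 bases that lie in exons of coding transcripts, and none of the 8 coding Vegfa transcripts of the annotation entered its value. The last intron bases (chr17:46021123-46021152, minus strand) are in lower case and the first exon bases (chr17:46021093-46021122) in capitals.
Vegfa-208: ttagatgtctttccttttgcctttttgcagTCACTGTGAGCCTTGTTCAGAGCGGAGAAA

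Levels are given in FPKM, a count of fragments divided by transcript length and by library size, summed per gene over the transcripts listed for every library. The clean reads numbered 44925938 to 48783182 per library, and the fragments counted on transcripts 3404336 to 4440581, which was 14.1 to 18.2% of the read pairs, so that a level of 0 refers to counted fragments only. The authors used 2 transcript lists, list A for NMDA library 1 and all 3 SCF libraries and list B for NMDA libraries 2 and 3, and the first principal component over all genes (53.3% of the variance) separated the libraries by list and not by group. Where a result rested on list B, the value with the transcript list as a term is also given, in which only NMDA library 1 stands against the SCF libraries. The rod genes Pde6a and Sag marked every library as retina, Pde6a with 1155 to 1930 and Sag with 523 to 820 FPKM. Groups were compared with limma on log2(FPKM + 1), with Benjamini-Hochberg adjustment over 25202 genes, and fold changes are SCF minus NMDA on that scale.

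No member passed an adjusted p of 0.05 (smallest adjusted p = 0.536), and neither did any other of the 25202 genes in this limma fit (0.0% called), although 2324 had an unadjusted p of at most 0.05 and limma-voom called 2 genes at an adjusted p of 0.05. At an unadjusted p of 0.05, limma called 1 of the 9 measured members, Vegfa, against 9.22% of all genes. The 2 groups did not overlap for 2 members, Cdh5 and Vegfa, both higher in SCF, against 7.63% of all genes that were higher without overlap, and for no member in the other direction, against 6.45%. Of the 20 single transcripts of the members that were tested, 3 had an unadjusted p of at most 0.05 (Flt1-202, Pecam1-201 and Vegfa-208), against 7.98% of all transcripts. SCF was higher without overlap for 2 of the 20 (6.32% of all transcripts) and lower for 2 (6.79%). The median log2 fold change was -0.02 over the members and -0.01 over all genes. The median over the 9 members was thus near that of the whole table, while the members themselves ranged from -0.96 for Flt1 to 0.79 for Cldn5. In bulk retinal RNA, fewer vessel cells and less RNA per cell cannot be told apart.

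**Figure D1:**
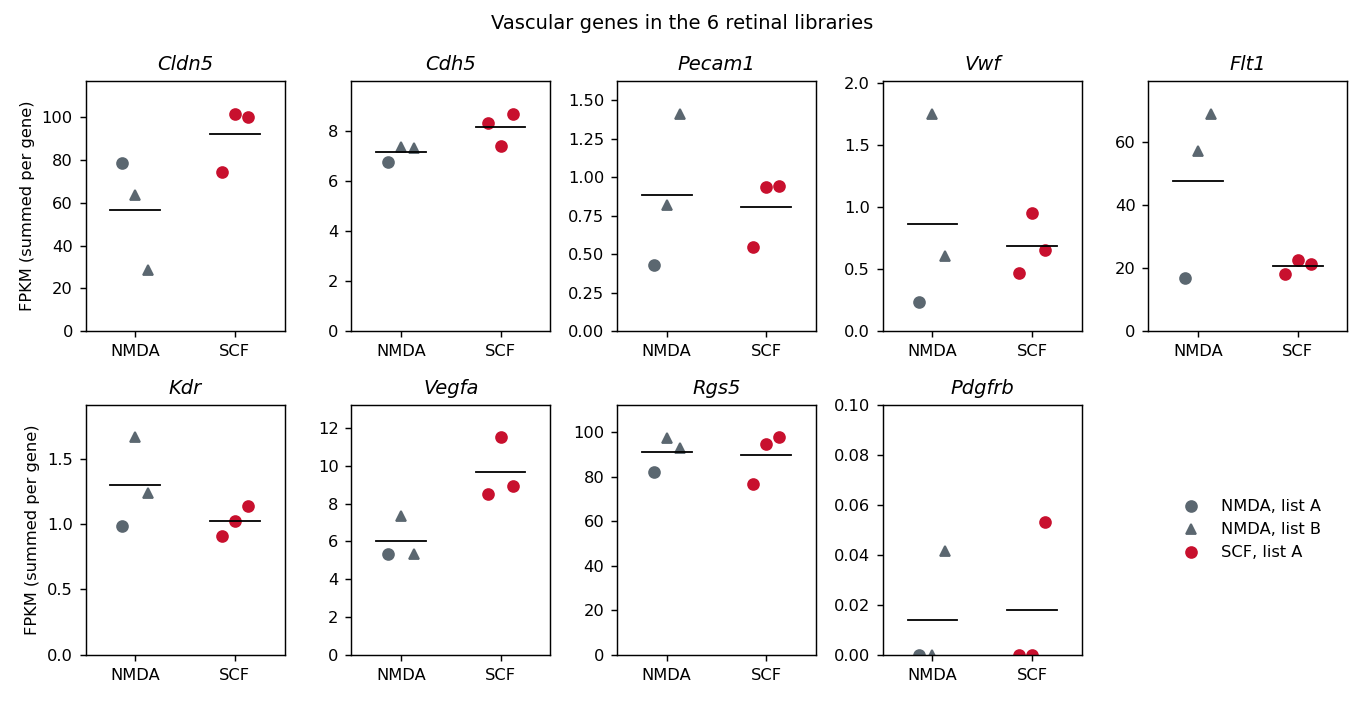
FPKM summed per gene (vertical axis, linear from 0, own scale per gene) in the 3 NMDA and 3 SCF libraries for the 9 measured genes, with horizontal lines at group means, circles for libraries on transcript list A and triangles for list B. Cdh5 and Vegfa did not overlap between groups, Cldn5 was lowest in NMDA library 3 at 28.5 FPKM, and Flt1 was high in the 2 list B libraries, at 57.1 and 69.0 FPKM.

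The members covered a wide range of levels. By mean FPKM over the 6 libraries the order was Rgs5 (90.3), Cldn5 (74.4), Flt1 (34.2), Vegfa (7.82), Cdh5 (7.65), Kdr (1.16), Pecam1 (0.849), Vwf (0.776) and Pdgfrb (0.0158). Flt1 lay above Vegfa, Cdh5 above Kdr, and Vwf above Pdgfrb in 6 of 6 libraries with no overlap. The other neighbours overlapped in their ranges, Rgs5 being above Cldn5 in 4 of 6 libraries and Vegfa above Cdh5 in 3 of 6. These levels belong to the listed transcripts. Kdr and Vegfa were measured on non-coding transcripts only, and Pecam1 mostly on a retained intron. Their values therefore cannot be read as levels of coding mRNA.

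Among the junction genes of the endothelium, Cdh5 encodes VE-cadherin, the adherens junction protein that defines endothelial cells. It was measured on its long coding transcript (Cdh5-201, 12 exons, chr8:104101625-104144511, plus strand). Its level was 6.76, 7.36 and 7.33 FPKM in NMDA libraries 1, 2 and 3, and 8.33, 7.41 and 8.69 in SCF libraries 1, 2 and 3, from 92 to 130 fragments. Every SCF library was above every NMDA library, SCF library 2 only narrowly so. The means were 7.15 ± 0.336 and 8.14 ± 0.659 FPKM (SD, n = 3 each), with an exact permutation p of 0.1, the smallest that 3 against 3 libraries allow. The log2 fold change of 0.16 (SE 0.20, 95% interval -0.30 to 0.63) did not pass, with an adjusted p of 0.775 in limma. Counting error alone was wider than the gap, with 95% Poisson intervals of 6.09 to 8.83 FPKM in NMDA library 2 and 6.05 to 8.99 FPKM in SCF library 2.

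Cldn5 encodes claudin-5, the main tight junction claudin of barrier endothelium, and is a gene of 1 exon (chr16:18776847-18778262, plus strand). Its level was 78.5, 63.5 and 28.5 FPKM in NMDA libraries 1, 2 and 3, and 74.3, 101.6 and 99.99 in SCF libraries 1, 2 and 3. NMDA library 3 was low and SCF libraries 2 and 3 high, while NMDA library 1 lay above SCF library 1, so the groups overlapped. The means were 56.8 ± 25.7 and 92.0 ± 15.3 FPKM, with a log2 fold change of 0.79 (SE 0.37, 95% interval -0.08 to 1.66), an unadjusted p of 0.0685 and an adjusted p of 0.545 in limma. Unlike for Cdh5, the spread exceeded counting error, since NMDA library 3 had 179 fragments (95% Poisson interval 24.5 to 33.0 FPKM) and NMDA library 1 had 379 (70.8 to 86.8). Without NMDA library 3 the log2 fold change was 0.36, against NMDA library 1 alone (transcript list as a term) it was 0.21, and without NMDA library 1 it was 1.08. With limma-voom on recovered fragments it was 0.80 with an unadjusted p of 0.0364.

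Set against Cdh5 in the same library, Cldn5 varied as much as it did alone. The ratio of Cldn5 to Cdh5 was 11.6, 8.62 and 3.89 in NMDA libraries 1, 2 and 3 and 8.92, 13.7 and 11.5 in SCF libraries 1, 2 and 3 (exact permutation p = 0.3). The low Cldn5 of NMDA library 3 was thus not matched by a low Cdh5. Itm2a, another gene of barrier endothelium, was also lowest there, with 35.4, 39.1 and 17.2 FPKM in NMDA libraries 1, 2 and 3 and 41.5, 47.5 and 46.6 in SCF libraries 1, 2 and 3 (log2 fold change 0.63, adjusted p = 0.545 in limma), and is named after its values were seen. The barrier genes did not share this pattern, since of the 16 measured only Itm2a and Ndp were above 0 and lowest in NMDA library 3, and 3 were highest there (Slc7a5, Slc2a1 and Slco1c1). The summed level of 9 measured genes of pigment epithelium and melanocytes was lowest in the same library, with 992, 578 and 244 FPKM in NMDA libraries 1, 2 and 3 and 853, 1063 and 1154 in SCF libraries 1, 2 and 3. Ttr and Mlana led that list, and its part in the Cldn5 values was not tested. The genes nearest to Cldn5 in their centred profile over the 6 libraries were Cnih2, Tstd1 and Galk1, at a root mean square distance of 0.0807, 0.0918 and 0.0945 on the log2 scale.

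**Figure D2:**
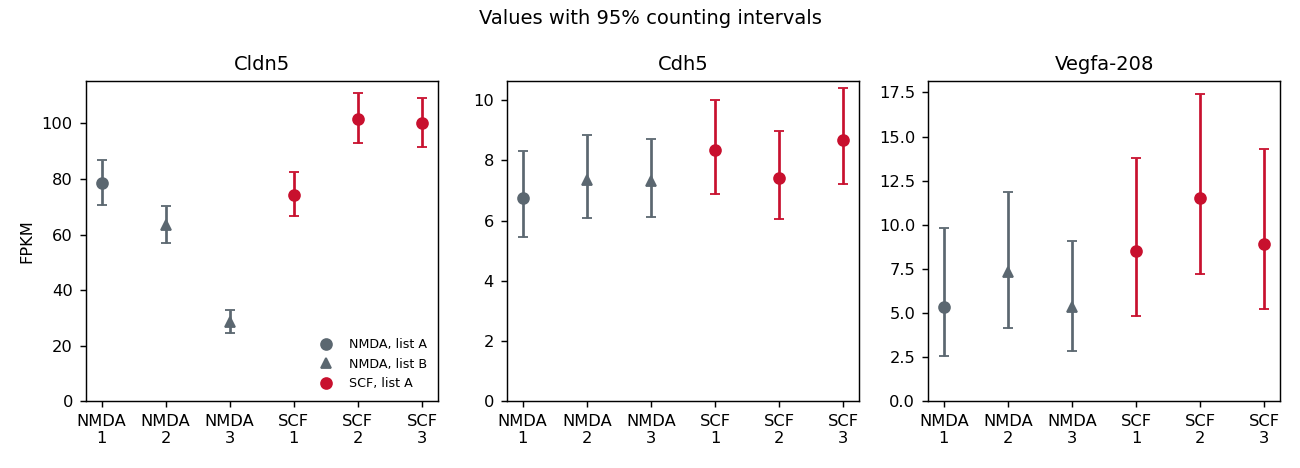
FPKM (vertical axis, linear from 0) of Cldn5, Cdh5 and Vegfa-208 in each of the 6 libraries, with 95% Poisson intervals that cover counting error only. The Cldn5 interval of NMDA library 3 (24.5 to 33.0) lay apart from those of the other 5 libraries, and the intervals of Cdh5 and Vegfa-208 overlapped across groups.

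Pecam1, which encodes the endothelial adhesion protein CD31, gave few fragments. Its level was 0.433, 0.818 and 1.41 FPKM in NMDA libraries 1, 2 and 3 and 0.545, 0.939 and 0.945 in SCF libraries 1, 2 and 3, from 4 to 14 fragments. The groups overlapped, with a log2 fold change of -0.04 (SE 0.30, adjusted p = 0.976 in limma). Most of this signal came from Pecam1-208, a retained intron, and 13.3% of it came from coding transcripts. Pecam1-201, which is coding and is named after its values were seen, had 3, 1 and 2 fragments in NMDA libraries 1, 2 and 3 and 0 in every SCF library. Its unadjusted p was 0.0440 (adjusted p = 0.591 in limma over 45261 transcripts), but all of its counts lay at or under 3 fragments, the number that a count of 0 still allows.

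Vwf, the von Willebrand factor stored in endothelial granules, was measured mainly on its 52-exon coding transcript Vwf-203. The gene's level was 0.232, 1.75 and 0.605 FPKM in NMDA libraries 1, 2 and 3 and 0.467, 0.947 and 0.654 in SCF libraries 1, 2 and 3, from 6 to 49 fragments. NMDA library 2 was the highest and NMDA library 1 the lowest, with all SCF libraries in between. The log2 fold change was -0.07 (SE 0.35, adjusted p = 0.960 in limma), and 0.25 without NMDA library 2. Fibroblast genes stood out in the same library: the summed level of 6 of them was 76.1 FPKM in NMDA library 2 and between 1.14 and 4.19 FPKM in the other 5 libraries, Col1a1 and Col3a1 leading with 37.7 and 17.3 FPKM, and their part in the Vwf value was not tested. Esm1, a gene of endothelial tip cells, was also highest in NMDA library 2, at 6.71 FPKM against at most 0.548 elsewhere.

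Of the VEGF receptors, Flt1 gave the largest difference between groups and the one most tied to the transcript lists. Summed over its transcripts (chr5:147561604-147726011, minus strand), Flt1 had 17.0, 57.1 and 69.0 FPKM in NMDA libraries 1, 2 and 3 and 18.1, 22.7 and 21.2 FPKM in SCF libraries 1, 2 and 3. The 2 list B libraries were high and all 4 list A libraries, NMDA library 1 among them, were low. The log2 fold change was -0.96 (SE 0.48, 95% interval -2.09 to 0.18, adjusted p = 0.548 in limma). Without NMDA library 1 it was -1.56 with an adjusted p of 0.00559, and with a term for the transcript list, so that only NMDA library 1 stands against SCF, it was 0.26 (unadjusted p = 0.256). Group and list cannot be told apart for this gene.

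The split by list lay in the full-length form. Flt1-202 (30 exons, 6895 bases) had 0.0852, 42.4 and 41.3 FPKM in NMDA libraries 1, 2 and 3, from 2, 1162 and 1264 fragments, and 0 fragments in each SCF library, where a count of 0 allows at most 0.128 FPKM. It was present in both list B libraries and at or below the detection limit in all 4 list A libraries, so its unadjusted p of 0.0241 (adjusted p = 0.591 in limma) is also a difference between lists, and with the transcript list as a term its log2 fold change of -3.65 became -0.12. Flt1-203, the shorter form shown above, had 16.7, 13.3 and 24.4 FPKM in NMDA libraries 1, 2 and 3 and 16.5, 21.2 and 19.9 FPKM in SCF libraries 1, 2 and 3, from 334 to 681 fragments. It was present on both lists at like levels, with a log2 fold change of 0.11 (SE 0.26, 95% interval -0.49 to 0.72, adjusted p = 0.895 in limma). Against Cdh5 its ratio was 1.81 to 3.33 in NMDA and 1.98 to 2.87 in SCF libraries (exact permutation p = 0.8). The 2 forms share 13 exons, and how fragments in shared exons were assigned is not given in the sources used here, so the division between them is uncertain. Of the non-coding transcripts, Flt1-206, a retained intron, and Flt1-204 had means of 0.640 and 0.634 FPKM over the 6 libraries, from at most 11 fragments in a library.

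The pattern of Flt1-202 was not limited to this gene. Of 3484 transcripts with at least 10 FPKM in both list B libraries, 175 (5.02%) lay under 0.5 FPKM in all 4 list A libraries, and in the reverse direction 56 of 3239 (1.73%). Acta2, smooth muscle actin of arteriolar mural cells, and Nrp1, a VEGF co-receptor, were 2 vascular genes that were likewise high on list B only. Acta2 had 0.660, 45.3 and 22.001 FPKM in NMDA libraries 1, 2 and 3 and 0.492, 0 and 0.812 in SCF libraries 1, 2 and 3. Nrp1 had 0, 7.13 and 5.70 FPKM in NMDA libraries 1, 2 and 3 and 0, 0 and 0.0804 in SCF libraries 1, 2 and 3. In limma their unadjusted p-values were 0.0268 for Acta2 and 0.0409 for Nrp1 (adjusted p = 0.536 for both). NMDA library 1 lay at the SCF level for both genes, so group and list cannot be told apart. With the transcript list as a term their log2 fold changes of -3.12 and -1.89 became -0.25 and 0.04. Nrp1 is named after its values were seen.

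**Figure D3:**
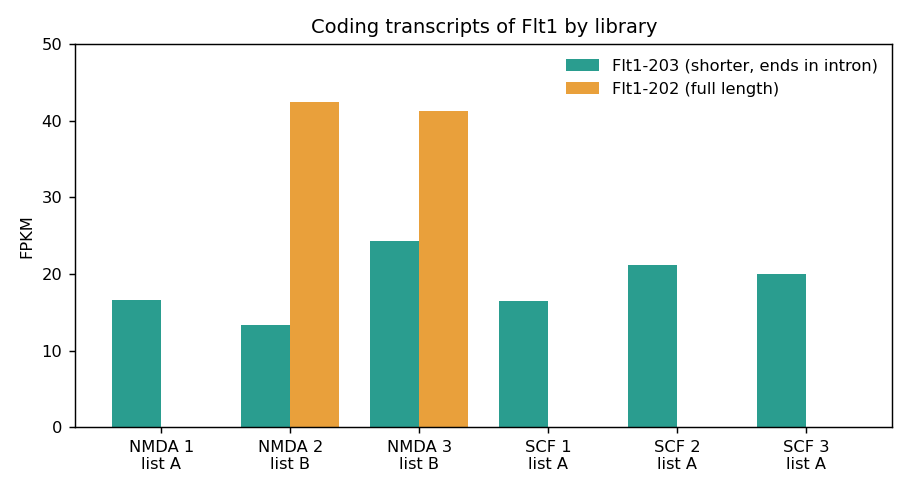
FPKM (vertical axis, from 0) of the 2 coding Flt1 transcripts in each of the 6 libraries, with the transcript list of each library under its name. Flt1-203 lay between 13.3 and 24.4 FPKM in all 6 libraries, and Flt1-202 was at 42.4 and 41.3 FPKM in the 2 list B libraries and at or near 0 in the others.

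Kdr encodes VEGFR2, the main signaling receptor for VEGF-A. On its non-coding transcripts it had 0.988, 1.66 and 1.24 FPKM in NMDA libraries 1, 2 and 3 and 0.909, 1.024 and 1.14 FPKM in SCF libraries 1, 2 and 3, from 12 to 25 fragments. The groups overlapped, the list B libraries being the 2 highest. The log2 fold change was -0.17 (SE 0.29, adjusted p = 0.837 in limma), and 0.02 with the transcript list as a term. Tek, the receptor of the angiopoietins, had no transcript on both lists. Its coding transcript Tek-202 was listed on list A only, at 0 in NMDA library 1 and the 3 SCF libraries, and the gene could not be compared.

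For the ligand, the retained-intron transcript Vegfa-208 had 5.34, 7.31 and 5.32 FPKM in NMDA libraries 1, 2 and 3 and 8.49, 11.5 and 8.94 FPKM in SCF libraries 1, 2 and 3. Every SCF library was above every NMDA library, and NMDA library 1 on list A lay with the other NMDA libraries. The means were 5.99 ± 1.14 and 9.64 ± 1.62 FPKM, and the log2 fold change was 0.61 (SE 0.23, 95% interval 0.06 to 1.16), with an unadjusted p of 0.0345 and an adjusted p of 0.536 in limma. The exact permutation p was 0.1. These values rest on 10, 16 and 13 fragments in NMDA libraries 1, 2 and 3 and on 16, 22 and 17 in SCF libraries 1, 2 and 3. The 95% Poisson intervals were wide, 2.56 to 9.82 FPKM in NMDA library 1 and 7.20 to 17.4 FPKM in SCF library 2, and limma-voom, which models the counts, gave an unadjusted p of 0.129. With the transcript list as a term the log2 fold change was 0.74, and with 1 library left out it lay between 0.49 and 0.74. The genes with the nearest profile were Slc30a10, Papolb and Ccdc8, at a root mean square distance of 0.0512, 0.0674 and 0.0792.

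Pericyte genes came next. Rgs5, a regulator of G protein signaling that marks pericytes, was the most abundant member (chr1:169655501-169695813, plus strand). Its level was 82.2, 97.5 and 93.1 FPKM in NMDA libraries 1, 2 and 3 and 76.7, 94.8 and 97.6 FPKM in SCF libraries 1, 2 and 3, from 1077 to 1693 fragments, all on the coding transcript Rgs5-201. The groups overlapped throughout, with means of 90.9 ± 7.90 and 89.7 ± 11.3 FPKM. The log2 fold change was -0.02 (SE 0.17, 95% interval -0.43 to 0.38, adjusted p = 0.972 in limma), and the interval leaves room for a change of up to 0.43 in size. The ratio of Rgs5 to Cdh5, a rough measure of pericyte to endothelial RNA, was 12.1, 13.2 and 12.7 in NMDA libraries 1, 2 and 3 and 9.21, 12.8 and 11.2 in SCF libraries 1, 2 and 3 (exact permutation p = 0.3).

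Pdgfrb, the receptor through which pericytes respond to PDGF-B, was measured on the coding transcript Pdgfrb-202 alone, and its other coding transcript was not used here. Pdgfrb-202 had 1 fragment in NMDA library 3, 1 in SCF library 3 and 0 in the other 4 libraries, and a count of 0 allows up to 0.125 to 0.162 FPKM, depending on the library. The 2 pericyte genes thus stood at opposite ends of the range. Whether Pdgfrb-202 gives the level of Pdgfrb in these retinas was not tested, since the other coding transcript was not used. No group difference can be read from 2 fragments, and the genes nearest to its nearly flat profile (Ppm1a, Gm43437 and Snx30) are those with little change over the libraries.

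**Figure D4:**
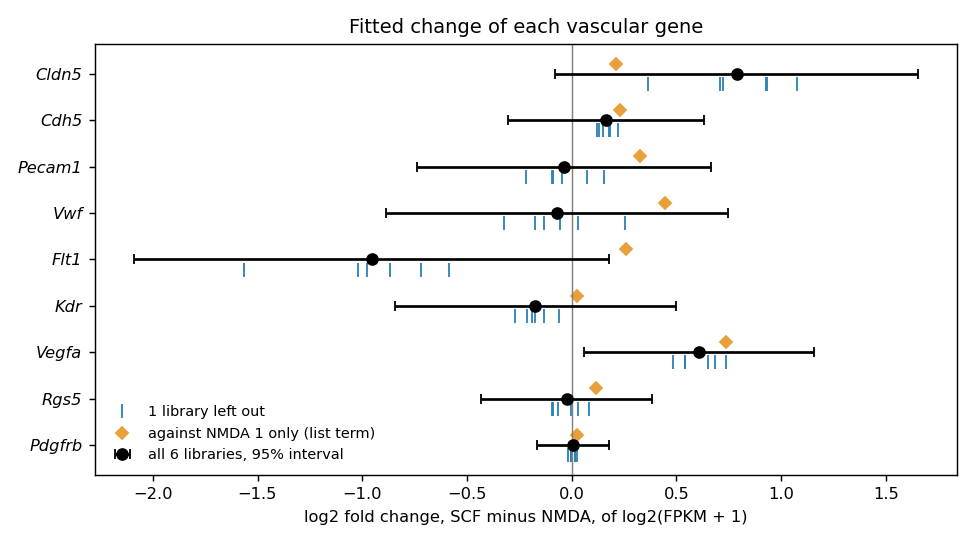
Log2 fold change of each gene, SCF minus NMDA on the log2(FPKM + 1) scale (horizontal axis), from all 6 libraries with its 95% interval (black), with each library left out in turn (blue ticks) and with the transcript list as a term (orange diamonds). The interval of Vegfa lay above 0 (0.06 to 1.16), the other 8 included 0, and Flt1 moved from -0.96 to 0.26 with the list term.

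Genes of the same vessels outside the 10 members were read from gene lists that were chosen with earlier results of these data known. Of 22 other endothelial genes, 20 were measured, and none passed an adjusted p of 0.05. Of these 20, 16 had a positive and 4 a negative log2 fold change, with a median of 0.08 against -0.01 over all genes. The groups did not overlap, SCF being higher, for 3 (S1pr1, Clec14a and Ramp2), and for none was SCF lower, against 7.63% and 6.45% of all genes. Over all genes with a mean of at least 1 FPKM the median was itself 0.07, and 0.01 to 0.11 under the alternatives. S1pr1 and Esam had the highest levels. S1pr1, the sphingosine 1-phosphate receptor, had 60.6, 41.4 and 47.9 FPKM in NMDA libraries 1, 2 and 3 and 73.3, 66.9 and 62.3 in SCF libraries 1, 2 and 3 (log2 fold change 0.44, SE 0.19, unadjusted p = 0.0538, adjusted p = 0.536 in limma), and with the transcript list as a term the log2 fold change was 0.15. S1pr1 is also expressed by astrocytes and Müller glia, whose 7 measured genes had a median log2 fold change of 0.28, 6 of them positive. These were led by Glul and, on list B only, Dkk3. With the transcript list as a term the log2 fold change was -0.33 for Glul, -0.11 for Dkk3, -0.08 for Kcnj10 and 0.01 for Rlbp1. It was 0.12 for Slc1a3, 0.26 for Pax2 and 1.53 for Gfap. Kcnj10, Rlbp1, Slc1a3, Pax2 and Gfap are named after their values were seen. Without Dkk3 the glial genes summed to 4093, 2336 and 2346 FPKM in NMDA libraries 1, 2 and 3. In SCF libraries 1, 2 and 3 the sum was 3387, 3514 and 3296 FPKM. Like S1pr1, it was lowest in NMDA libraries 2 and 3. The part of glia in the S1pr1 values was not tested. Esam, an endothelial adhesion molecule, had 34.4, 23.1 and 28.3 FPKM in NMDA libraries 1, 2 and 3 and 34.1, 34.6 and 37.7 in SCF libraries 1, 2 and 3, with overlap (log2 fold change 0.32, adjusted p = 0.608 in limma). With the transcript list as a term the log2 fold change of Esam was 0.04. Ramp2, the adrenomedullin co-receptor, lay between 0.191 and 0.452 FPKM in NMDA and between 0.810 and 2.25 FPKM in SCF libraries (log2 fold change 0.96, unadjusted p = 0.0158, adjusted p = 0.536 in limma), and was named, like Clec14a, after its values were seen. Fragment counts of Ramp2 are not given here, and whether the gap at these low levels exceeds counting error was not tested. The sum of the 20 genes was 139, 118 and 121 FPKM in NMDA libraries 1, 2 and 3 and 155, 151 and 157 FPKM in SCF libraries 1, 2 and 3.

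Of 19 blood-retina barrier genes, 16 were measured, 9 with a positive and 7 with a negative log2 fold change (median 0.11). The lactate transporter Slc16a1, which pigment epithelium and neural retina also express, had 302.4, 206.9 and 243.9 FPKM in NMDA libraries 1, 2 and 3 and 337.8, 356.1 and 293.3 in SCF libraries 1, 2 and 3, and the amino acid transporter Slc7a5 had 52.5 to 75.0 FPKM in NMDA and 69.6 to 72.9 FPKM in SCF libraries. Both overlapped between groups. The log2 fold change of Slc16a1 was 0.40, and 0.12 with the transcript list as a term. SCF was higher without overlap for 3 genes: Itm2a, Mfsd2a, the lipid transporter of barrier endothelium, and Fzd4, the receptor for norrin, against 7.63% of all genes. Mfsd2a lay between 0 and 0.234 FPKM in NMDA and between 0.269 and 1.09 FPKM in SCF libraries. Whether the gap at these low levels exceeds counting error was not tested. Fzd4 had 19.1, 24.1 and 20.4 FPKM in NMDA libraries 1, 2 and 3 and 26.4, 24.4 and 25.1 in SCF libraries 1, 2 and 3 (log2 fold change 0.25, adjusted p = 0.654 in limma). Tjp1, the scaffold protein ZO-1 found in many cell types, was the 1 gene lower without overlap (6.45% of all genes), with 7.54, 19.96 and 17.9 FPKM in NMDA libraries 1, 2 and 3 and 5.43, 3.78 and 3.31 in SCF libraries 1, 2 and 3 (log2 fold change -1.56, unadjusted p = 0.00424, adjusted p = 0.536 in limma). The 2 high values of Tjp1 were again those of the list B libraries, and with the transcript list as a term the log2 fold change was -0.74. Coding transcripts gave 39.5% of the Tjp1 FPKM. Mfsd2a, Fzd4 and Tjp1 are named after their values were seen.

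Of 18 other mural cell genes, 14 were measured, 4 with a positive and 10 with a negative log2 fold change (median -0.10). These signs are from the fit without a term for the transcript list. With that term Notch3, Tagln, Mcam and Art3 turned positive, and the 4 positive genes stayed positive. Acta2, Myh11, Higd1b, Heyl and Tbx18 stayed negative, and Kcnj8 showed no difference. Apart from Notch3 and Acta2, these genes are named after their values were seen. No gene was without overlap, against 7.63% of all genes higher and 6.45% lower in SCF. Notch3, the Notch receptor of mural cells, had 4.60, 8.53 and 8.26 FPKM in NMDA libraries 1, 2 and 3 and 5.01, 5.57 and 4.71 in SCF libraries 1, 2 and 3 (log2 fold change -0.38, adjusted p = 0.688 in limma). NMDA library 1 again lay near the SCF level, and with the transcript list as a term the log2 fold change was 0.12. Kcnj8 and Cspg4, defining pericyte genes, did not exceed 0.0987 and 0.112 FPKM in any library, and are named after their values were seen. The Cspg4 value came from non-coding transcripts, and its 1 listed coding transcript gave 0% of it.

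In the VEGF and hypoxia pathway 12 of 15 genes were measured, 7 with a positive and 5 with a negative log2 fold change (median 0.12). Without overlap SCF was higher for 2 (Vegfb and Nrp2), against 7.63% of all genes, and lower for 1 (Hif1a), against 6.45%. Nrp2 is named after its values were seen. Vhl, which marks the hypoxia factor HIF-1α for degradation, was the most abundant, with 51.1 to 69.0 FPKM in NMDA and 61.5 to 69.8 FPKM in SCF libraries. Hif1a, which encodes HIF-1α, had 16.2, 34.0 and 32.5 FPKM in NMDA libraries 1, 2 and 3 and 13.96, 11.1 and 6.99 in SCF libraries 1, 2 and 3 (log2 fold change -1.27, unadjusted p = 0.00838, adjusted p = 0.536 in limma), with 6.18% of its FPKM from coding transcripts and NMDA library 1 close to the SCF libraries. With the transcript list as a term its log2 fold change was -0.61. Vegfb, a ligand of VEGFR1 but not of VEGFR2, had 1.28, 1.09 and 1.96 FPKM in NMDA libraries 1, 2 and 3 and 3.81, 4.37 and 3.14 in SCF libraries 1, 2 and 3 (log2 fold change 0.97, unadjusted p = 0.0138, adjusted p = 0.536 in limma). Like Vegfa, it was measured on non-coding transcripts only, and it was named after its values were seen. Of 10 genes of the angiopoietin and PDGF pathways, 9 were measured and all overlapped between groups (median 0.00). Of all genes, 7.63% were higher and 6.45% lower in SCF without overlap. Pdgfb, the pericyte-recruiting ligand, had 4.03, 6.62 and 3.78 FPKM in NMDA libraries 1, 2 and 3 and 5.16, 7.81 and 7.37 in SCF libraries 1, 2 and 3 (log2 fold change 0.44, adjusted p = 0.637 in limma). Ptprb, the endothelial phosphatase VE-PTP that acts on TIE2, had 3.87 to 5.86 FPKM in NMDA and 4.03 to 5.404 FPKM in SCF libraries.

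**Figure D5:**
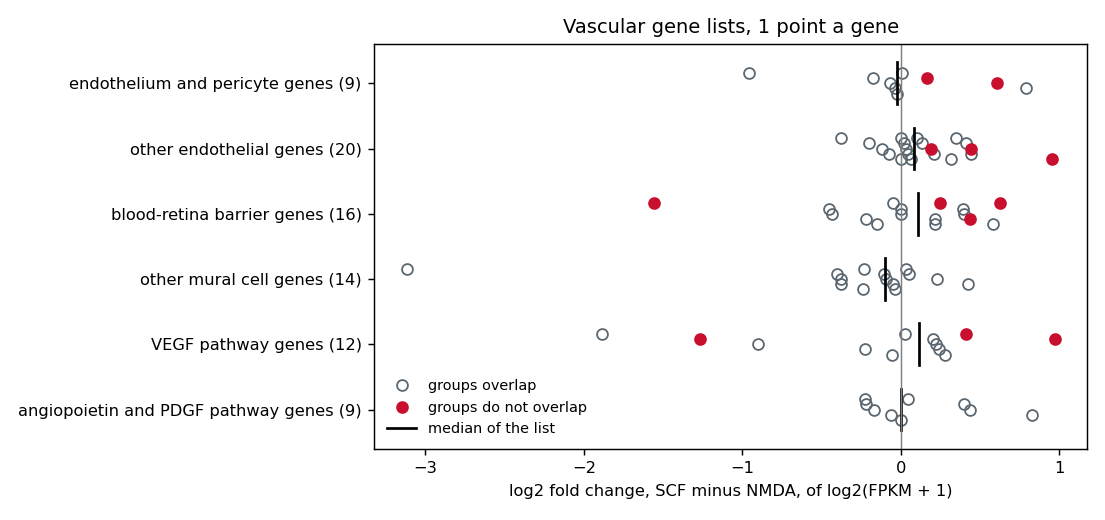
Log2 fold change, SCF minus NMDA on the log2(FPKM + 1) scale (horizontal axis), of every measured gene of the 10 endothelium and pericyte genes and of 5 further vascular lists, with the number measured in brackets, filled points where the groups did not overlap, and black bars at list medians. The medians ran from -0.10 for other mural cell genes to 0.12 for VEGF pathway genes, in the fit without a term for the transcript list.

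Blood and neighbouring tissues varied between libraries. The summed level of 3 measured erythroid genes, carried in blood within the vessels, was 49.8, 38.6 and 26.4 FPKM in NMDA libraries 1, 2 and 3 and 47.5, 111 and 235 FPKM in SCF libraries 1, 2 and 3, with Hbb-bs and Hbb-bt leading. SCF libraries 2 and 3, the highest in globin, were also the highest in Cldn5, and Cdh5 was highest in SCF library 3 but not in SCF library 2. Lens genes, led by Crygs and Cryba1, summed to 23.4 to 304 FPKM in NMDA and 459 to 9533 FPKM in SCF libraries. The 4 measured leukocyte and microglia genes summed to 2.33 to 14.1 FPKM in NMDA and 10.2 to 11.6 FPKM in SCF libraries, nearly all of it from Tmem119. The part of these tissues in the vascular values was not tested.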

How the data were processed

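RNA of mouse retina was sequenced after oligo (dT) enrichment in 6 libraries, 3 of the NMDA group and 3 of the SCF group, grouped by their labels. The authors deposited FPKM values per transcript for each library, as well as library totals, of which the count of clean reads and the Q30 percent (92.92 to 94.32) were read and 5 columns were not used. The aligner, the counting tool and strand use are not given in the sources used here. The labels name the build mm9, but 98.2% of the 63313 transcripts found in GENCODE M21 lay at its GRCm38 positions, so coordinates are from that annotation.

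The members and gene lists were chosen with earlier results of these data known. Gene values are sums of FPKM over those of the 46933 Ensembl transcripts on both lists that belong to the gene, and 25202 of 25935 genes above 0 were fitted with limma 3.58.1 in R 4.3.3 (log2(FPKM + 1), variance trend, condition only), as were 45261 transcripts. Calls were made at a fold change of 2 and 0.001 adjusted, and also at 0.05, adjusted and unadjusted. Fragments were recovered from FPKM times transcript length, and 98.4 to 98.5% of values came out whole within 0.05 fragment. Poisson intervals (95%) and the limit of 3 fragments cover counting error only. All permutation tests were exact and 2-sided. Named were the members, the 2 most abundant genes of each other list, the 3 nearest profiles of Cldn5, Pdgfrb and Vegfa, and member transcripts of at least 0.5 FPKM; other genes and transcripts are said to be named after their values were seen, except a member's only listed transcripts. With the transcript list as a term, the values of single genes outside the members and of Flt1-202 were added after seeing the data. Alternatives were scalings, a pseudocount of 0.1, a mean of at least 1 FPKM, all listed transcripts, limma-voom, the transcript list or the replicate number as a term, and each library left out.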

Additional observations from a re-analysis of the deposited data

How the results depend on the processing

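No gene passed the study's thresholds (fold change of 2, adjusted p of 0.001) in this limma fit, with 0 to 191 genes and 0 to 278 transcripts when 1 library was left out, the highest counts without NMDA library 1. The study itself reported genes past these thresholds, with a test that its methods do not name, so the counts are not like for like. At an adjusted p of 0.05 the count of 0 genes became 2 with limma-voom and 53 with the transcript list as a term, and 0 to 909 genes and 0 to 918 transcripts with 1 library left out. At an unadjusted p of 0.05, 2324 genes became 1150 to 4332 and 3612 transcripts 1931 to 6428. Of the members, 0 to 2 passed an unadjusted and 0 to 1 an adjusted p of 0.05 with 1 library left out, the latter being Flt1 without NMDA library 1. Without NMDA library 1 all remaining NMDA libraries were on list B and all SCF libraries on list A. Group and list therefore cannot be told apart in those counts or in that call of Flt1. The cause of the other shifts was not tested.

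With the transcript list as a term the sign turned for Pecam1 (0.33), Kdr (0.0235), Flt1 (0.26), Vwf (0.45) and Rgs5 (0.12). Of genes outside the members, the sign also turned for Nrp1 (0.0372), Notch3 (0.12) and others named above. For these genes the alternative was chosen after seeing the data. Vwf also turned with a pseudocount of 0.1 (0.0147) and with limma-voom (0.10). With 1 library left out the log2 fold changes ran from -0.22 to 0.16 for Pecam1, from -0.32 to 0.25 for Vwf, from -0.0196 to 0.0250 for Pdgfrb and from -0.0938 to 0.0839 for Rgs5. None of these was called. Cdh5, Cldn5 and Vegfa kept a positive sign under every alternative run, with 0.12 to 0.22, 0.36 to 1.08 and 0.49 to 0.74 when 1 library was left out. Other alternatives gave lower values, 0.09 for Cdh5 with median-of-ratios scaling and 0.21 for Cldn5 with the transcript list as a term.

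Same-numbered libraries did not deviate together (correlations -0.0503, -0.0459 and -0.0774). This gives no sign of pairing by number, but correlations from 3 libraries in each group cannot exclude it. With the replicate block, 0 members passed limma's unadjusted threshold, Vegfa no longer among them, and 1856 genes did. Low counts limit Vegfa, Kdr, Pecam1, Vwf and Pdgfrb, each with at most 49 fragments in a library. The parts of sequencing depth and of the transcript lists in these low counts were not tested.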
